A study of Mus musculus with 17 samples.

Results

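The 9 genes described here mark successive steps of the oligodendrocyte lineage, and they were found in the deposited table by matching its Ensembl identifiers to the GENCODE mouse symbols *Olig1*, *Olig2*, *Sox10*, *Pdgfra*, *Cspg4*, *Gpr17*, *Mbp*, *Nkx2-2* and *Bcas1*. All 9 of 9 were present among the 55359 genes of the table, and all 9 passed the filter on low counts in forebrain. The rule that selected them used their names and no measured value.

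Forebrain RNA of male mice at postnatal day 1 was sequenced from 3 WT, 3 *Ocn*+/- and 3 *Ocn*-/- pups of the *Ocn*_GK strain, which lacks osteocalcin through homologous recombination and is kept on a 129/SvEv background. Osteocalcin is a hormone made by osteoblasts, and the study asked whether its absence in the pup and in the mother alters the developing organs. The mothers of the WT pups were WT, and those of the *Ocn*+/- as well as of the *Ocn*-/- pups were *Ocn*-/-. The labels name the tissue hippocampus, whereas the study calls it forebrain, the name kept here, and testes of 2 WT, 3 *Ocn*+/- and 3 *Ocn*-/- pups of the same age were sequenced as well. Between WT and either mutant genotype, the genotype of the pup, the genotype of the mother and the litter therefore changed together and cannot be told apart, while *Ocn*-/- and *Ocn*+/- pups shared the maternal genotype. Both mutant genotypes were compared with the same 3 WT libraries, so their differences from WT are not independent of each other. The caption of the study's forebrain heatmap counts 2 WT, 3 *Ocn*+/- and 3 *Ocn*-/- mice. The deposit holds 3 WT forebrains, all used here, so the WT set may differ from that of the study.

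Oligodendrocytes wrap axons in myelin. In the embryonic forebrain their precursors arise from ventral and then dorsal progenitors under hedgehog signalling, spread through the tissue while dividing in response to platelet-derived growth factor, and around birth begin to commit to differentiation. Precursors carry the PDGF receptor alpha and the NG2 proteoglycan, committed cells pass through a brief stage marked by *Gpr17* and *Bcas1*, and myelin proteins follow, mostly after birth.

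Counts of a forebrain library summed to between 6518151 and 14621584. The lowest total belonged to WT replicate 3 (WT 3), in which the ribosomal RNA gene *Rn18s-rs5* took 8.503% of the counts, against 0.261% to 0.805% in the other forebrains. Differences of the members from WT, and the calls made in the other lists, are therefore also given without WT 3. Of the targeted gene pair, *Bglap* had 0 to 5 counts and *Bglap2* had 0 counts in each forebrain, WT included, so the genotype labels could not be checked from the osteocalcin genes in this tissue. Markers shared by cortex and hippocampus were all detected, at summed levels of 1180 to 1590 CPM, and markers of the olfactory bulb and striatum, outside the hippocampus, were present as well and differed between libraries. The summed level of 7 olfactory bulb markers was 31.3 to 37.4 CPM in WT, 104 to 133 CPM in *Ocn*+/- and 25.8 to 86.5 CPM in *Ocn*-/- mice, where CPM is a count scaled by the TMM-normalized library size, and that of 8 striatal markers was 133 to 146, 143 to 197 and 184 to 211 CPM. The libraries were made from whole tissue, in which more cells of a type and more RNA per cell cannot be told apart.

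All 9 members are protein-coding, and positions are given in GRCm39. *Olig1* (ENSMUSG00000046160) occupies chr16:91066660-91068821 on the plus strand, and *Olig2* (ENSMUSG00000039830) lies upstream of it on the same strand at chr16:91019435-91025567, with 41092 bases between them. *Sox10* is at chr15:79039108-79049469 on the minus strand, *Pdgfra* at chr5:75311994-75358876 on the plus strand and *Cspg4* at chr9:56772317-56807187 on the plus strand. *Nkx2-2* at chr2:147019466-147036163 and *Bcas1* at chr2:170188911-170269765 share a chromosome, both on the minus strand. Antisense transcripts covered 12.2% of the exon bases of *Nkx2-2* (*Nkx2-2os*), 11.7% of those of *Bcas1* (*Bcas1os1*), and 10.5% and 7.3% of those of *Olig1* (*Gm41492* and *Gm15966*), and the coding gene *Lims2* covered 5.9% of those of *Gpr17*. The strandedness of the libraries is not given in the sources used here, so reads from the 2 strands cannot be told apart in these stretches.

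RefSeq promoter windows (GRCm38.p6, 250 bases before to 50 bases after the start) were at hand for 4 of the 9 members, *Olig2*, *Pdgfra*, *Cspg4* and *Nkx2-2*. Those of *Olig2* and *Pdgfra*, the pair of these with the highest levels, are shown 5′ to 3′ on the plus strand, to set the start region of the factor that founds the lineage beside that of its main growth factor receptor. Capitals mark matches on either strand to the SOX core (ACAAT or ATTGT), the letters that SOX-family factors such as SOX10 prefer, and to the E-box (CANNTG) to which basic helix-loop-helix factors such as OLIG1 and OLIG2 bind. *Olig2* (chr16:91225300-91225599) held 1 SOX core and 0 E-boxes, with a GC content of 65%, and *Pdgfra* (chr5:75152001-75152300) held 0 SOX cores and 2 E-boxes, with a GC content of 51%.
Olig2: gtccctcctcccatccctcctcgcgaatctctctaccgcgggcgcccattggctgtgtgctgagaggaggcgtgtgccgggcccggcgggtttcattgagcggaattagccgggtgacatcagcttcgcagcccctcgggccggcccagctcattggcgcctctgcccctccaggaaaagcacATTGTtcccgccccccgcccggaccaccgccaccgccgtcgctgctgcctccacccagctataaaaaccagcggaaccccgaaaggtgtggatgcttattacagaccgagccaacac
Pdgfra: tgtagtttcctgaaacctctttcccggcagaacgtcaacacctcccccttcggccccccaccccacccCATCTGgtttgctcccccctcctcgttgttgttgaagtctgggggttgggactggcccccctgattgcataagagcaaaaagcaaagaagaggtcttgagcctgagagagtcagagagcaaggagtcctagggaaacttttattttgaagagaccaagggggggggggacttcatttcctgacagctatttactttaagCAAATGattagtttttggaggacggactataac
*Nkx2-2* held 1 SOX core and 3 E-boxes, and *Cspg4* held 1 and 0. Among all 32851 windows of the same length, 31% held a SOX core and 72.3% an E-box, so these matches are common and serve as a description of the sequence only.

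All 9 genes were expressed in newborn forebrain, at very different levels. Per kilobase of the longest transcript, which allows genes to be compared, *Olig1* was the highest at a mean of 30.3 ± 4.87 CPM per kb (SD, n = 9), followed by *Pdgfra* at 12.9 ± 0.676 CPM per kb. *Olig2* at 7.03 ± 0.811 and *Mbp* at 6.63 ± 0.471 CPM per kb did not differ beyond their spread. The next neighbours, *Gpr17* at 3.2 ± 1.32, *Sox10* at 2.81 ± 0.87 and *Cspg4* at 2.37 ± 0.187 CPM per kb, likewise overlapped. *Bcas1*, at 1.65 ± 0.351 CPM per kb, was above *Nkx2-2*, at 1.05 ± 0.364 CPM per kb, but their ranges of 1.04 to 2.32 and 0.42 to 1.63 CPM per kb overlapped too. Dividing by the union of all exons instead kept this order, although it lowered *Pdgfra* to 7.68 and *Mbp*, which has 69 annotated transcripts, to 4.09 CPM per kb. *Mbp* in particular has a long transcription unit that also makes transcripts without the myelin exons, and the gene counts do not separate them.

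The members also differed in how steady they were. Across the 9 forebrains the coefficient of variation of CPM was 5.23% for *Pdgfra*, 7.11% for *Mbp* and 7.9% for *Cspg4*. It reached 31% for *Sox10*, 34.7% for *Nkx2-2* and 41.4% for *Gpr17*. *Nkx2-2* had as few as 5 counts in a library and *Bcas1* and *Sox10* as few as 18 and 21, so counting error was larger relative to their level than for *Pdgfra*, which had at least 505.

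Among the transcription factors that specify the lineage, *Olig1* was higher in both mutant genotypes than in WT mice. *Olig1* encodes a basic helix-loop-helix factor needed for the maturation of oligodendrocytes. Its level was 57.5, 59.3 and 43.8 CPM in WT replicates 1 to 3, 73.4, 66.7 and 76.7 CPM in *Ocn*+/- and 64.8, 72.1 and 74.4 CPM in *Ocn*-/- replicates 1 to 3. All 6 mutant libraries were above all 3 WT libraries, WT 3 was the lowest, and the 2 mutant genotypes overlapped. On the log2 scale, the mean of both mutant genotypes was 0.40 above WT (SE 0.0961, 95% interval 0.20 to 0.60), or 1.32-fold, with an adjusted p of 0.0142 in edgeR's quasi-likelihood test. The difference was 0.42 (SE 0.109, adjusted p = 0.0358) in *Ocn*+/- and 0.39 (SE 0.109, adjusted p = 0.0455) in *Ocn*-/- mice, on the same scale.

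The call of *Olig1* depended on single libraries. Without WT 3 its difference stayed positive, at 0.29 for both mutants together, 0.31 for *Ocn*+/- and 0.28 for *Ocn*-/- mice on the log2 scale, but the adjusted p was 0.0992, 0.152 and 0.192, and even the lowest mutant library was still above WT replicates 1 and 2. For both mutants together WT 3 was the only single library whose removal ended the call. For *Ocn*+/- mice the call also ended without *Ocn*+/- replicate 1 (adjusted p = 0.0878) or 3 (adjusted p = 0.122). For *Ocn*-/- mice the call remained only when *Ocn*+/- replicate 1 was left out, and each other removal gave an adjusted p from 0.0502 to 0.192. Over all alternatives *Olig1* was called in 7 of 19 in *Ocn*-/- mice, in 13 of 19 in *Ocn*+/- mice and in 15 of 18 for both together. With only the WT and *Ocn*-/- libraries in the fit, *Olig1* had an adjusted p of 0.0551.

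*Olig2*, the neighbour of *Olig1* and the factor without which precursors do not form, had no such difference between groups. Its level was 24, 27.6 and 29.7 CPM in WT, 28.1, 21 and 24.3 CPM in *Ocn*+/- and 28.5, 30.5 and 26 CPM in *Ocn*-/- replicates 1 to 3. The 3 genotypes overlapped, and WT 3, the lowest library for *Olig1*, was the second highest for *Olig2*. The log2 difference of both mutants from WT was -0.03 (95% interval -0.27 to 0.21, adjusted p = 0.903), and without WT 3 it was 0.04 (adjusted p = 0.912).

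*Sox10*, which switches on the myelin genes and is kept through every later step of the lineage, was also above WT in all 6 mutant libraries but did not pass the test. It was measured at 6.18, 7.37 and 3.74 CPM in WT, 12.8, 8.52 and 8.20 CPM in *Ocn*+/- and 7.51, 7.43 and 9.26 CPM in *Ocn*-/- replicates 1 to 3. *Ocn*+/- replicate 1 was the highest and WT 3 the lowest, and the lowest *Ocn*-/- library was only just above WT replicate 2. The log2 difference of both mutants from WT was 0.59 (SE 0.209, adjusted p = 0.0814), and without WT 3 it was 0.41 (adjusted p = 0.341). Over the other settings its adjusted p ran from 0.0281, with no filter on low counts, to 0.476.

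*Olig1* and *Sox10* were the only members with all mutant libraries on 1 side of WT. Among the 16076 genes tested, 6.85% had all 6 mutant libraries above all 3 WT libraries, and 8.57% had them all below, so a separation of this kind was common in these data.

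*Nkx2-2*, a hedgehog-induced homeodomain factor that times differentiation, was scarce. Its level was 1.83, 3.46 and 0.889 CPM in WT, 3.25, 2.25 and 2.35 CPM in *Ocn*+/- and 2.24, 1.81 and 1.96 CPM in *Ocn*-/- replicates 1 to 3. The WT libraries alone spanned the whole range of the mutants. The log2 difference of both mutants from WT was 0.11 with a 95% interval of -0.59 to 0.80 (adjusted p = 0.877), and without WT 3 it was -0.17 (adjusted p = 0.837). The interval from all 9 libraries still includes a moderate change in either direction.

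**Figure D1:**
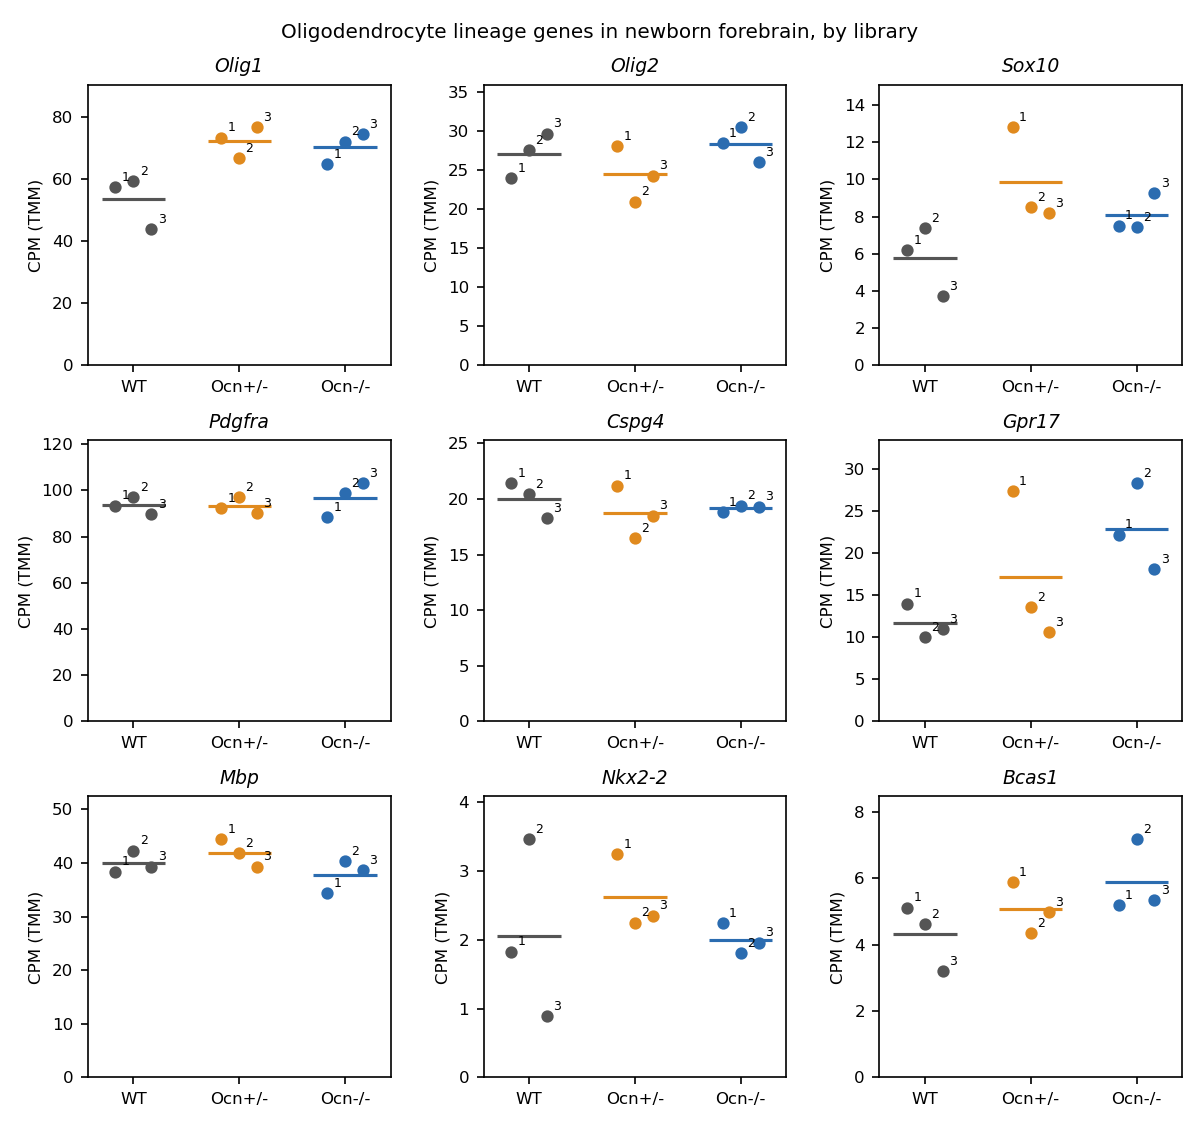
Level of each of the 9 genes in every forebrain library, in CPM after TMM normalization on an axis from 0, by genotype on the horizontal axis; points are libraries with their replicate number and bars are the means of 3. *Olig1* and *Sox10* have all 6 mutant libraries above the 3 WT libraries, *Gpr17* is high in the *Ocn*-/- libraries and *Ocn*+/- replicate 1, and *Pdgfra* and *Mbp* lie close together in all genotypes.

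The surface proteins of the precursors varied little. *Pdgfra*, the receptor through which PDGF drives precursor division, was measured at 93.4, 97.2 and 89.8 CPM in WT, 92.2, 96.9 and 90.2 CPM in *Ocn*+/- and 88.3, 98.9 and 103 CPM in *Ocn*-/- replicates 1 to 3. The genotypes overlapped throughout. Both mutants together differed from WT by 0.02 on the log2 scale, with a 95% interval of -0.13 to 0.18 (adjusted p = 0.893), the narrowest interval of the 9. Without WT 3 the difference was -0.001 (adjusted p = 0.995).

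*Cspg4*, which encodes the NG2 proteoglycan of precursors and pericytes, was likewise steady. Its level was 21.4, 20.4 and 18.3 CPM in WT, 21.2, 16.5 and 18.5 CPM in *Ocn*+/- and 18.8, 19.4 and 19.3 CPM in *Ocn*-/- replicates 1 to 3. No mutant library was above the highest WT library, and the groups overlapped. On the log2 scale both mutants together differed from WT by -0.09, with a 95% interval of -0.33 to 0.15 (adjusted p = 0.681), and without WT 3 by -0.14 (adjusted p = 0.617). *Pdgfra* is also made by meningeal fibroblasts and *Cspg4* by pericytes. Of 9 fibroblast markers 2 were higher (3 without WT 3) and 0 were called by edgeR in both mutants together, with summed levels of 422 to 492 CPM in WT, 374 to 486 in *Ocn*+/- and 271 to 519 in *Ocn*-/- mice. Of 8 pericyte markers 2 were higher and 2 were called lower (*Abcc9* at -0.74 and *Higd1b* at -1.34 on the log2 scale), where 5.39% of all genes were called lower, with summed levels of 231 to 268, 189 to 250 and 187 to 228 CPM. Without WT 3, 1 of 8 was higher and only *Abcc9* was still called (adjusted p = 0.0385), while *Higd1b* had an adjusted p of 0.0866. No defining marker of either list was at 0, and the part of these cells in the levels of *Pdgfra* and *Cspg4* was not tested.

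*Gpr17*, of the committed stage, had the largest difference of the 9 in *Ocn*-/- mice and the widest spread over libraries. This orphan receptor, encoded at chr18:32076050-32082888 on the minus strand, which marks committed precursors and holds back their maturation, was measured at 14, 10 and 11 CPM in WT, 27.4, 13.6 and 10.6 CPM in *Ocn*+/- and 22.2, 28.3 and 18.1 CPM in *Ocn*-/- replicates 1 to 3. All 3 *Ocn*-/- libraries were above all WT libraries, whereas *Ocn*+/- replicate 1 was at the *Ocn*-/- level and *Ocn*+/- replicates 2 and 3 lay within the WT range. How common such a separation of 3 from 3 libraries is among all genes was not determined. The log2 difference from WT was 0.95 in *Ocn*-/- mice (SE 0.373, 95% interval 0.08 to 1.81, 1.93-fold), with an adjusted p of 0.194, and 0.54 in *Ocn*+/- mice (95% interval -0.34 to 1.42, adjusted p = 0.47).

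The call of *Gpr17* changed with the libraries that entered the fit. When WT and *Ocn*-/- libraries were fitted without the *Ocn*+/- libraries, the same log2 difference of 0.95 had an adjusted p of 0.00548, and with *Ocn*+/- replicate 1 left out it had an adjusted p of 0.00472. Across the 19 alternatives its adjusted p lay between 0.00472 and 0.531, its log2 difference between 0.77 and 1.13, and it was called in 4 of them. Without WT 3 the difference was 0.92 and the adjusted p 0.408, and without both WT 3 and *Ocn*+/- replicate 1 the adjusted p was 0.0384. *Ocn*+/- replicate 1, in which *Gpr17* stood apart from its group, was also the only forebrain with a clear level of *Pmch*, a neuropeptide of the lateral hypothalamus, at 8.05 CPM against at most 0.178 CPM in the others. *Pmch* was picked from the 14 thalamus and hypothalamus markers outside the rule for naming genes. The summed level of those 14 was 80.6 CPM in *Ocn*+/- replicate 1. It was 83.3 CPM in WT 3, where *Gpr17* was at 11 CPM. The part of what *Pmch* marks in the level of *Gpr17* was not tested.

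*Bcas1*, a myelin-associated protein of newly formed oligodendrocytes, was measured at 5.11, 4.61 and 3.20 CPM in WT, 5.88, 4.34 and 4.97 CPM in *Ocn*+/- and 5.19, 7.17 and 5.34 CPM in *Ocn*-/- replicates 1 to 3. The 3 *Ocn*-/- libraries were above WT, the closest by less than the spread within a group, and *Ocn*+/- libraries overlapped WT. The share of all genes with the 3 *Ocn*-/- libraries above WT was not determined. The log2 difference of *Ocn*-/- from WT was 0.42 (SE 0.238, adjusted p = 0.313), and without WT 3 it was 0.28 (adjusted p = 0.635).

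*Mbp*, which encodes the basic protein that compacts myelin, was the most mature member and was not called. The gene lies at chr18:82493207-82603763 on the plus strand. It was measured at 38.4, 42.3 and 39.3 CPM in WT, 44.4, 41.9 and 39.3 CPM in *Ocn*+/- and 34.4, 40.3 and 38.6 CPM in *Ocn*-/- replicates 1 to 3. The genotypes overlapped, with *Ocn*+/- replicate 1 the highest and *Ocn*-/- replicate 1 the lowest. The log2 difference of both mutants from WT was -0.01 with a 95% interval of -0.20 to 0.18 (adjusted p = 0.967), and without WT 3 it was -0.02 (adjusted p = 0.964).

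**Figure D2:**
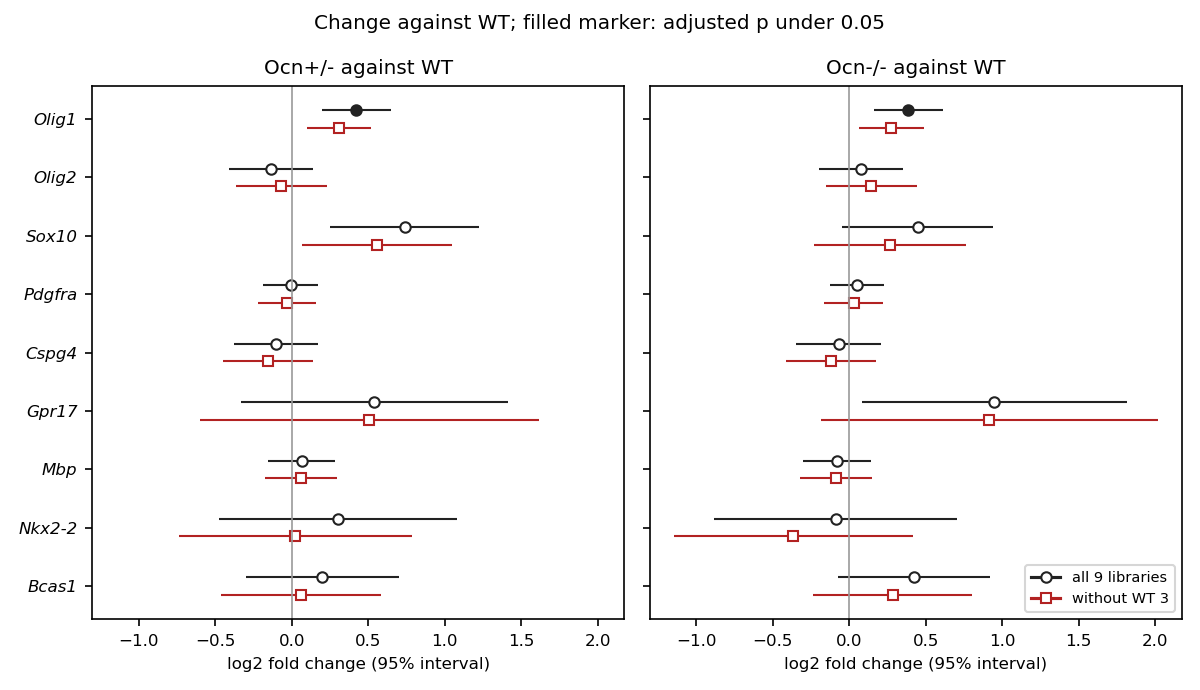
Log2 fold change of each gene (horizontal axis) in *Ocn*+/- and in *Ocn*-/- mice against WT, with 95% intervals, from all 9 forebrain libraries (black circles) and without WT 3 (red squares); filled markers passed an adjusted p of 0.05. *Olig1* alone is filled, at 0.42 and 0.39, and none is filled without WT 3.

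Counted over the 9 members, 1 (11.1%) was called in *Ocn*+/- mice against WT, where 3.89% of all genes tested were called. The count was again 1 in *Ocn*-/- mice against WT, where 4.85% of all genes were called, and 1 for both mutants together, where 8.68% were. In each of the 3 comparisons that member was *Olig1*. With 9 members a single call is the smallest count above 0, and its share is above 3.89% and 4.85% and near 8.68%. The median log2 difference of the members for both mutants together was 0.11, with 6 of 9 higher, beside a median of 0.01 over all genes. Without WT 3, 0 members were called in any comparison with WT, the median was 0.04, and 1.11%, 1.15% and 1.95% of all genes were called by edgeR.

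Between the mutant genotypes, which shared the maternal genotype, 0 of 9 members were called by edgeR, where 0.00622% of all genes tested (1 gene) were called. Without WT 3 the count was also 0, beside 0.00609% of all genes. In edgeR 515 genes had an unadjusted p under 0.05, and DESeq2 called 5 genes. The log2 differences of the members ran from -0.39 (*Nkx2-2*) to 0.41 (*Gpr17*), each with an adjusted p of 0.999. For *Olig1* the interval of the *Ocn*-/- minus *Ocn*+/- difference was -0.26 to 0.18, but for *Gpr17* it reached 1.22 and for *Nkx2-2* -1.14, so the interval of either gene still includes a 2-fold difference.

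**Figure D3:**
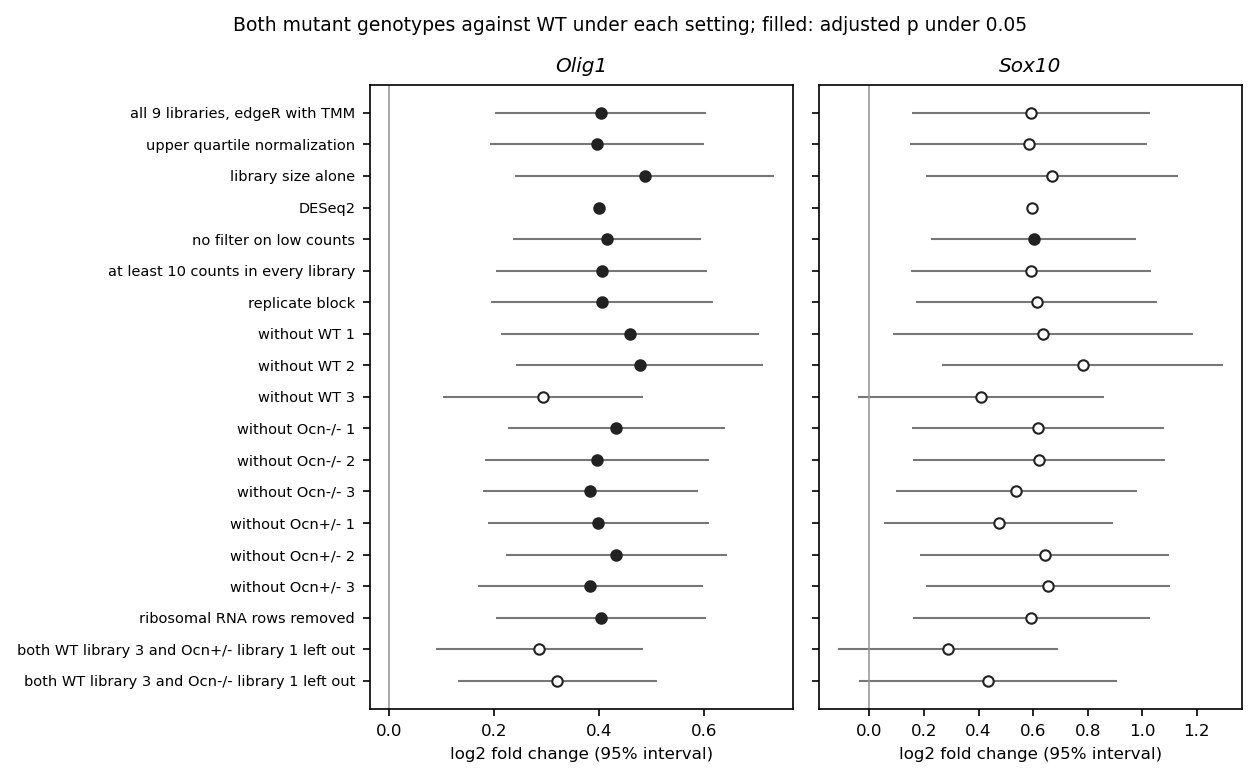
Log2 fold change of *Olig1* and *Sox10* in both mutant genotypes together against WT (horizontal axis) under each setting or with each library left out (vertical axis), with 95% intervals, which DESeq2 does not have here; filled markers passed an adjusted p of 0.05. *Olig1* is open only in the 3 settings without WT 3, with its lowest value at 0.29, and *Sox10* is filled only with no filter on low counts.

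Lists of other genes of the lineage were examined to see whether the members moved in company. Over the 49 other lineage genes reported here, of which 41 could be tested, 21 were higher in both mutants together and 1 was called by edgeR, in the lower direction, where 3.29% of all genes tested were called higher and 5.39% lower. The precursor list (13 of 14 tested) had a median log2 difference of 0.03, the list of committed precursors (11 of 14 tested) -0.01 and the myelin list (17 of 21 tested) 0.03, each beside 0.01 over all genes.

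The gene called was *Apod*, which encodes a lipid carrier made by mature oligodendrocytes and also by meningeal cells. Its log2 difference was -0.52 (adjusted p = 0.00916), and without WT 3 it was -0.54 (adjusted p = 0.0383).

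Of 11 genes that hold back oligodendrocyte differentiation, 5 were higher in both mutants together. Beside 3.29% of all genes called higher and 5.39% called lower, 0 of the 11 were called higher and 1 was called lower. That gene was *Id2*, whose product sequesters the partners of basic helix-loop-helix factors. Its level was 149, 175 and 187 CPM in WT, 91.8, 113 and 121 CPM in *Ocn*+/- and 95.2, 78.8 and 113 CPM in *Ocn*-/- replicates 1 to 3. Every mutant library was below every WT library, as in 8.57% of all genes tested. The log2 difference was -0.74 (SE 0.113, adjusted p = 0.00174) and, without WT 3, -0.67 (adjusted p = 0.0272). *Id2* is also made in neurons of the cortex, striatum and olfactory bulb, so its level does not belong to the lineage alone. The median of the list was -0.15, and -0.05 without WT 3.

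Of the 16 PDGF and hedgehog signalling genes, among them the ligands *Pdgfa* and *Shh* and the hedgehog targets *Ptch1* and *Gli1*, 9 were higher and 0 were called in either direction by edgeR, with a median of 0.07. The osteocalcin receptors were examined as well because *Gpr37* is itself a gene of maturing oligodendrocytes. *Gpr37* had a log2 difference of 0.37 (SE 0.185, adjusted p = 0.223), and *Gpr158* one of 0.43 (SE 0.135, adjusted p = 0.054), in both mutants together.

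The myelin genes differed widely in their counts at this age. Of these 21 myelin genes *Klk6* had 0 counts in every forebrain and *Mobp* at most 2 counts, while *Mag* had 4 to 25 counts and *Mog* 26 to 58 counts in a library. Others were well counted, among them *Qdpr* at 182 to 588, *Cnp*, an enzyme of the oligodendrocyte membrane, at 119 to 390 and *Cldn11*, a tight junction protein of myelin, at 121 to 249 counts. These examples were chosen after their values were seen.

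The olfactory bulb markers had an order of their own over the libraries, and 5 of 6 tested were higher and 0 were called in both mutants together, with a median log2 difference of 0.84 and 1 of the list's 7 (*Kcna10*) at 0 in every library. Without WT 3 that median was 1.14, and in *Ocn*+/- mice against WT 1 marker, *Eomes*, was called higher (log2 difference 0.85, adjusted p = 0.0412). In that fit 1.11% of all genes were called in either direction. *Cdhr1*, a cadherin of mitral and tufted cells, was measured at 10.9, 12.6 and 4.8 CPM in WT, 82.5, 71 and 92.1 CPM in *Ocn*+/- and 8.15, 51.8 and 54 CPM in *Ocn*-/- replicates 1 to 3. It was low in *Ocn*-/- replicate 1 and in WT and highest in *Ocn*+/- mice. Schwann cells and the ensheathing glia of the olfactory nerve also express *Sox10*, and 7 of their markers had summed levels of 9.43 to 13.3 CPM in WT, 19.2 to 23.8 CPM in *Ocn*+/- and 11.3 to 19.9 CPM in *Ocn*-/- mice, with 3 of 4 tested higher, 1 called (*Frzb*, log2 difference 1.09, adjusted p = 0.0189) and 0 of the 7 at 0 in every library. Of all genes tested 3.29% were called higher in this comparison. Without WT 3 *Frzb* had an adjusted p of 0.115, and 0 markers of this list were called by edgeR. In *Ocn*-/- replicate 1, which had the lowest summed olfactory bulb level of all forebrains (25.8 CPM), *Olig1* was at 64.8 CPM, the lowest of the 6 mutant libraries and above every WT library. The part of these unequal markers in the levels of *Olig1*, *Sox10* and the other members was not tested.

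Striatal markers followed another order: their summed level was higher in all 3 *Ocn*-/- libraries than in all 3 WT libraries, and the *Ocn*+/- libraries overlapped both. Of 8 markers, 7 were higher and 3 were called higher in both mutants together, *Drd1* at 0.76, *Gpr6* at 1.63 and *Adora2a* at 0.49 on the log2 scale. In this comparison 3.29% of all genes tested were called higher and 5.39% lower. Without WT 3 only *Drd1* of the 8 was called (adjusted p = 0.0341), beside 1.95% of all genes called in either direction. The dopamine receptor *Drd1* was measured at 15.7, 12.9 and 10.3 CPM in WT, 21.2, 20.4 and 17.5 CPM in *Ocn*+/- and 30.1, 22 and 24.8 CPM in *Ocn*-/- replicates 1 to 3, so that, as for *Olig1*, all mutant libraries were above WT and WT 3 was the lowest. Among all genes tested 6.85% had all mutant libraries above WT. In the other lists fewer markers were called higher. Of 9 radial glia and astrocyte markers 4 were higher and 1 was called (*Gfap*, log2 difference 0.70), and of 8 neuron markers 3 were higher and 1 was called (*Syt1*, 0.21). Without WT 3 *Gfap* was still called (adjusted p = 0.0359) and *Syt1* was not (adjusted p = 0.163). The 9 cortex and hippocampus markers, 9 tested markers of thalamus and hypothalamus and 7 of choroid plexus had 0 calls each by edgeR, with 4, 3 and 1 higher and medians of -0.18, -0.32 and -0.26. Without WT 3 these medians were -0.04, 0.10 and -0.21, and 6 of the 9 markers of thalamus and hypothalamus were higher, so the direction of that list rests on WT 3. The choroid plexus markers summed to 590 to 755 CPM in WT, 588 to 877 CPM in *Ocn*+/- and 330 to 543 CPM in *Ocn*-/- mice. In *Ocn*-/- mice against WT their median log2 difference was -0.52, and 1 of 7, *Aqp1*, was called lower (-0.85, adjusted p = 0.0136), whereas 0 were called by edgeR without WT 3, with a median of -0.53. The shares of all genes called in either direction were 4.85% and, without WT 3, 1.15%. Of 9 midbrain and hindbrain markers, 7 had at most 3 counts in every library, and the 1 that was tested was higher and not called. The part of the unequal striatal markers in the level of *Olig1* was not tested.

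**Figure D4:**
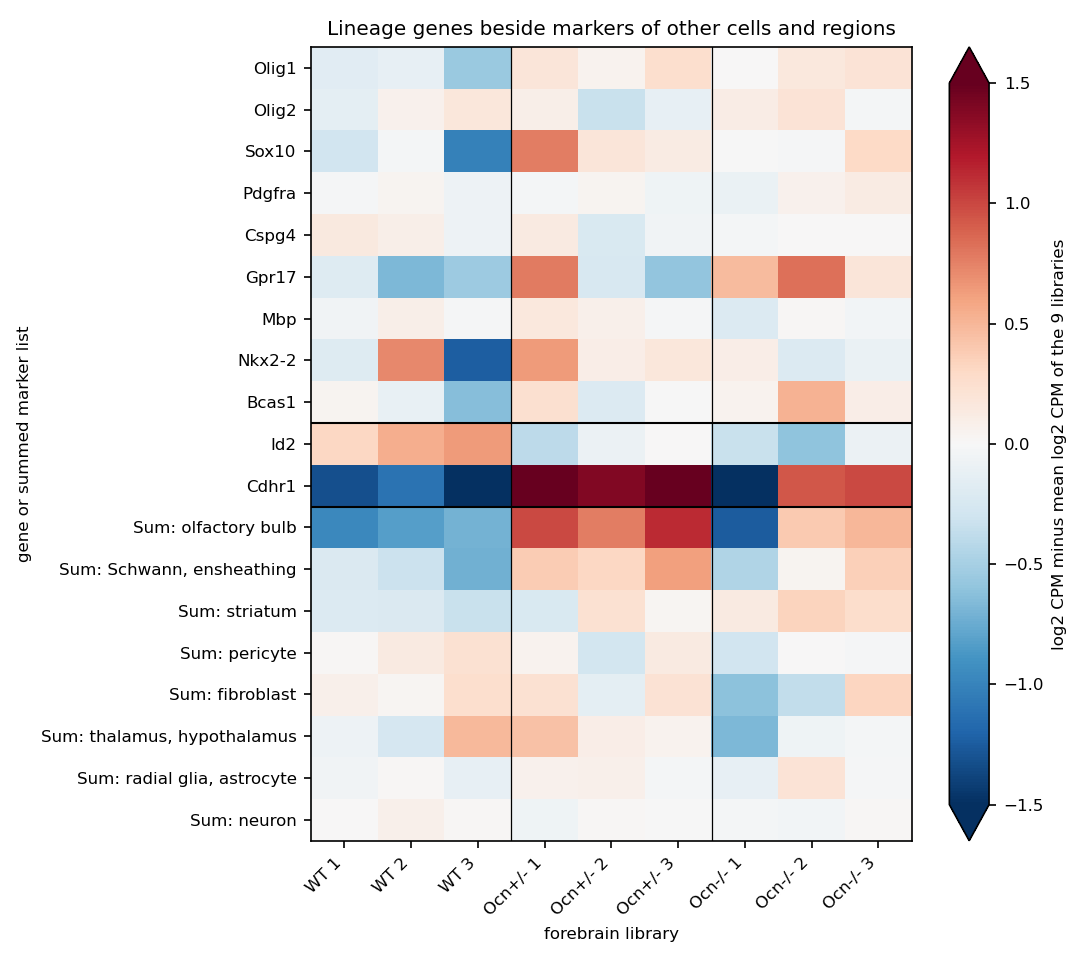
Level in each forebrain library (columns) of the 9 lineage genes, 2 further genes and the summed markers of 8 cell types or regions (rows), as log2 CPM minus the mean over the 9 libraries, with colours saturated at 1.5 on either side. *Cdhr1*, itself a large part of the olfactory bulb sum, is low in WT and in *Ocn*-/- replicate 1 (8.15 CPM), and *Olig1* is lowest in WT 3 (43.8 CPM).

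Across the 9 forebrains the members did not move as 1 set. Over 36 pairs of members the median Pearson correlation of log2 CPM was 0.31, and 0.14 without WT 3, values that include the differences between genotypes. *Olig1* and *Sox10* had a correlation of 0.867, and of 0.639 without WT 3, and *Gpr17* and *Bcas1* one of 0.767, and of 0.807 without WT 3. The neighbours *Olig1* and *Olig2* had a correlation of -0.226, and of 0.132 without WT 3.

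The genes outside the lineage whose pattern was most like the mean of the members over the 9 forebrains were *Sdhaf2*, with a Pearson correlation of 0.949, *Ppm1m* (0.939), *Itpkc* (0.935), *Nptx1* (0.933), *Kcns2* (0.926), *Armc9* (0.925), *Mtrf1l* (0.924), *Ccdc87* (0.923), *Swap70* (0.921) and *1810030O07Rik* (0.92). For single members the closest were *Rap1gds1* for *Olig1* (0.992), *Elovl6* for *Olig2* (0.917), *Fig4* for *Sox10* (0.969), *Endog* for *Pdgfra* (0.923), *Gpr153* for *Cspg4* (0.953), *Hecw2* for *Gpr17* (0.97), *Slc6a12* for *Mbp* (0.934), *Krtcap2* for *Nkx2-2* (0.939) and *Cdkl2* for *Bcas1* (0.978). Each was picked as the best of all such genes over 9 points that share genotype and depth, so these are descriptions of likeness.

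In testes, which hold no oligodendrocytes, some members were nearly absent and others were not. *Olig1*, *Olig2* and *Nkx2-2* had 0 to 3 counts and *Gpr17* 0 to 8 counts in each of the 8 testes. *Pdgfra* was higher than in forebrain, at a mean of 119 CPM per kb against 12.9, and *Cspg4* was at 7.58 against 2.37 CPM per kb. Both are genes of interstitial and perivascular cells of the testis. *Mbp* was at 5.31 CPM per kb in testes, close to its forebrain level of 6.63, while *Sox10* at 1.26 and *Bcas1* at 0.707 CPM per kb were below theirs. The 2 tissues were normalized separately, so these levels are a description.

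**Figure D5:**
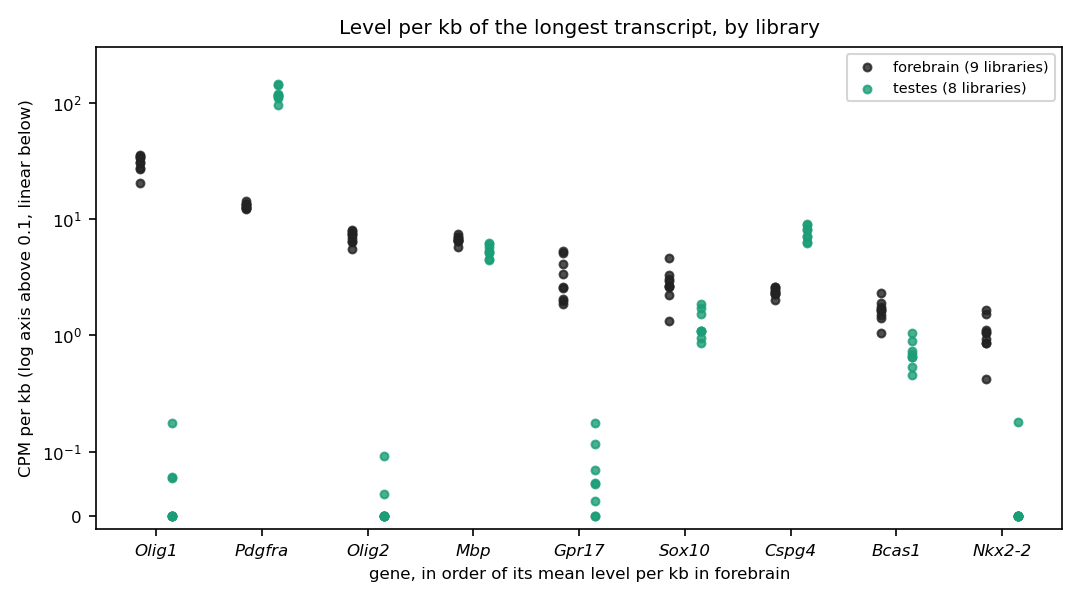
CPM per kb of the longest transcript in each of 9 forebrain (black) and 8 testis (green) libraries, for the 9 genes in order of their forebrain level, on an axis that is logarithmic above 0.1 and linear below. *Olig1*, *Olig2*, *Gpr17* and *Nkx2-2* lie near 0 in testes, and *Pdgfra* and *Cspg4* lie above their forebrain levels.

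Whether the change against WT differed between tissues was tested in a joint fit of all 17 libraries, in which 0 of 9 members were called, where 2.96% of 17800 genes tested were called. Only *Pdgfra*, *Cspg4*, *Mbp*, *Sox10* and *Bcas1* had at least 10 counts in every testis, and they alone are compared. *Pdgfra* was measured at 1060 and 1030 CPM in WT testes, 690, 869 and 798 CPM in *Ocn*+/- and 832, 835 and 840 CPM in *Ocn*-/- testes. All 6 mutant testes were below both WT testes. The shares of all genes called, or separated in this way, in testes were not determined. For *Pdgfra* the log2 difference in testes was -0.37 (adjusted p = 0.007 in edgeR), while its forebrain difference in the same fit was 0.03. The forebrain minus testes difference was 0.40 (SE 0.12, adjusted p = 0.0694), and over the 13 alternatives of this fit the adjusted p ran from 0.0503 to 0.16, so a difference between the tissues did not pass the test. The differences were 0.90 for *Sox10* (adjusted p = 0.23), 0.69 for *Bcas1* (adjusted p = 0.388), 0.28 for *Mbp* (adjusted p = 0.361) and -0.19 for *Cspg4* (adjusted p = 0.639).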

How the data were processed

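RNA-seq libraries of 9 forebrains and 8 testes of P1 mice were grouped by their sample labels. According to the methods and the submitters' processing notes, poly-A libraries were read on a HiSeq, trimmed with Trim Galore 0.6.6, aligned to GRCm39 with STAR 2.7.8a and counted with RSEM 1.3.3. The authors deposited expected counts per gene, not normalized, and 9625 of 55359 genes had at least 1 fractional value. RSEM divides reads shared by several genes among them.

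Expected counts were rounded. Identifiers were matched to GENCODE M39 (54749 found). The 9 forebrains were fitted together, without covariates, with edgeR 4.0.16 in R 4.3.3 (TMM, filterByExpr by genotype, robust quasi-likelihood tests), leaving 16076 genes, or 16432 without WT 3. The contrast for both mutants averages the *Ocn*+/- and *Ocn*-/- coefficients. Calls are two-sided at a Benjamini-Hochberg adjusted p under 0.05 over all genes tested. A joint fit of all 17 libraries tested tissue against genotype. Log2 CPM used a prior count of 1. Replicates are separate pups, and p-values measure the spread between them. The fits were tested on simulated counts. No 2 libraries of the same group agreed within sampling noise.

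The members, lists and tests were chosen with earlier results of these data known. All members are named, as are the osteocalcin receptors *Gpr37* and *Gpr158*, the called genes of each lineage and signalling list, called or abundant genes of each marker list, and the protein-coding genes with a mean of at least 1 CPM whose pattern was most like the members. *Pmch* was named outside these rules. Tried as alternatives were library size alone, upper quartile normalization, DESeq2 1.42.0, no filter, at least 10 counts in every library, only the groups compared, the replicate number as a block, and each library left out. Chosen after seeing the data were removal of ribosomal RNA genes and leaving out WT 3 together with *Ocn*+/- or *Ocn*-/- replicate 1. Some genes of the lineage lists are not reported here and were left out of the list counts.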

Additional observations from a re-analysis of the deposited data

How the results depend on the processing

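Of 671 alternative values of the members' log2 differences, 611 kept their direction and their side of the threshold, 21 kept the direction but lost the call, 6 gained a call and 33 changed sign. *Olig1* and *Sox10* stayed above WT in every alternative. The causes were not tested.

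Library size alone called 369 genes for *Ocn*+/- against WT and 2 between the mutants, called 0 members for *Ocn*+/-, gave medians of all genes of 0.086, 0.106 and 0.096 in place of 0.006, 0.006 and 0.007 on the log2 scale (*Ocn*+/-, *Ocn*-/- and both), and raised the share of calls that were higher from 31% to 47.7% (*Ocn*+/-), 37.2% to 64.5% (*Ocn*-/-) and 37.9% to 64.6% (both). It turned the sign of *Pdgfra* in *Ocn*+/- (0.073), of *Cspg4* (0.025) and *Mbp* (0.019) in *Ocn*-/-, and of *Olig2* (0.064) and *Mbp* (0.083) in both mutants. No filter called 1265, 1502 and 34 genes for *Ocn*+/-, *Ocn*-/- and between the mutants, called 2 members for *Ocn*+/- and 2 for both mutants, and gave *Pdgfra* 0.003 in *Ocn*+/- and *Mbp* 0.004 in both. Upper quartile normalization called 0 members for *Ocn*-/-. Between the mutants DESeq2 called 5 genes, and at least 10 counts in every library and only the groups compared called 0 each.

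Without WT 3 and *Ocn*+/- replicate 1, genes called were 112, 307, 2 and 305 for *Ocn*+/-, *Ocn*-/-, between the mutants and both, members called were 0 for *Ocn*+/-, 1 (*Gpr17*) for *Ocn*-/- and 0 for both, and *Gpr17* (-0.01), *Nkx2-2* (-0.17) and *Bcas1* (-0.065) in *Ocn*+/- and *Nkx2-2* (-0.27) in both changed sign. Without WT 3 and *Ocn*-/- replicate 1, genes called were 225, 155 and 392 for *Ocn*+/-, *Ocn*-/- and both, members called were 0 in each, and *Olig1* between the mutants (0.019) and *Olig2* (0.036), *Mbp* (0.016) and *Nkx2-2* (-0.21) in both changed sign. With single libraries left out, genes called ran from 183 to 830 for *Ocn*+/-, 189 to 919 for *Ocn*-/-, 1 to 2 between the mutants and 320 to 1527 for both, and members called from 0 to 1, 0 to 2, 0 to 0 and 0 to 1. Sign changes occurred for *Pdgfra* in *Ocn*+/- (-0.034 to 0.02) and both (-0.002 to 0.054), *Olig2* in *Ocn*-/- (-0.012 to 0.14) and both (-0.12 to 0.038), *Nkx2-2* in *Ocn*-/- (-0.37 to 0.45) and both (-0.17 to 0.64), *Mbp* in both (-0.039 to 0.034), and *Olig1* (-0.09 to 0.02) and *Cspg4* (-0.047 to 0.13) between the mutants.

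The replicate numbers were not used as pairs in the main fit. Same-numbered libraries had correlations of -0.066 to 0.217, over 0.1 in 2 of 9 pairs, and 5 of 9 libraries correlated best with their own number. Whether the numbers pair the samples was not tested. With the replicate number as a block, 768 genes were called for *Ocn*+/-, 1140 for *Ocn*-/-, 1 between the mutants and 1618 for both, and 2 members, *Olig1* and *Gpr17*, were called for *Ocn*-/-. *Nkx2-2*, with 5 counts in a library, has no value under the filter of 10 counts. With 3 libraries a group and few counts for *Nkx2-2*, *Bcas1* and *Sox10*, small changes were not detectable.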

Other observations

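*Olig1* and *Olig2*, which lie side by side on chromosome 16, differed in how their counts stood to each other. The ratio of *Olig1* to *Olig2* counts, which needs no normalization between libraries, was 2.39, 2.15 and 1.47 in WT, 2.61, 3.18 and 3.16 in *Ocn*+/- and 2.27, 2.37 and 2.86 in *Ocn*-/- replicates 1 to 3. All 3 *Ocn*+/- libraries were above all WT libraries, whereas the lowest *Ocn*-/- libraries lay within the range of WT replicates 1 and 2. The ratio was computed after both genes had been described, and was not tested.

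The *Gpr17* level of *Ocn*+/- replicate 1 (27.4 CPM) was matched in that library by the highest *Sox10* level of all forebrains (12.8 CPM), and by the highest *Mbp* level (44.4 CPM, against 42.3 CPM in the next library), while its *Pdgfra* level (92.2 CPM) lay within the range of the other libraries.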
